A study of Homo sapiens with 6 samples.

Results

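The Iroquois homeobox genes, IRX1 to IRX6, are a family of 6 human genes. They were taken by symbol from the deposited table of 35793 genes, which lists all 6. RNA was sequenced from cardiomyocytes on day 15 of their differentiation from WTC11, a widely used human pluripotent stem cell line. The wild-type (WT) group was WTC11 itself. The knockout (STK25KO) group came from a WTC11 derivative with a homozygous CRISPR/Cas9 knockout of STK25, a serine/threonine kinase gene. Each genotype had 3 biological replicates, and neither received a treatment. The knockout is a single cell line, so the edit and any other difference between the lines cannot be told apart.

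Iroquois proteins are transcription factors with a homeodomain of the TALE class, which carries an extra loop of amino acids, and a conserved Iro box that is characteristic of the family. The human genes lie in a pair of clusters, IRX4, IRX2 and IRX1 on chromosome 5 and IRX3, IRX5 and IRX6 on chromosome 16. In the heart IRX4 is known as a ventricle-restricted factor that keeps atrial genes off in ventricular muscle, while IRX3 and IRX5 are known for their roles in the ventricular conduction system and in the gradient of repolarising current across the ventricular wall. IRX1 and IRX2 are known from the developing interventricular septum.

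The family shares its DNA-binding region closely enough that short reads from it can be hard to assign. The most alike stretch of 60 coding bases, found by comparing every codon-aligned window of IRX4 with the other 5 coding sequences in GENCODE 29 transcripts, encodes part of the homeodomain. It is printed for all 6 genes, 5′ to 3′, to show how alike the members are, with capitals marking each base that differs from IRX4.
IRX4: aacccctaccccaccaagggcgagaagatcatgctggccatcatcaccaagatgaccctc
IRX3: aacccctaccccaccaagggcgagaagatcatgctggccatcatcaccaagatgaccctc
IRX5: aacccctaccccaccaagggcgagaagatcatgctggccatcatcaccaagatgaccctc
IRX1: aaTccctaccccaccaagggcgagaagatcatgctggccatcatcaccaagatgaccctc
IRX2: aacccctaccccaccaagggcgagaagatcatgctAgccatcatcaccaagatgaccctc
IRX6: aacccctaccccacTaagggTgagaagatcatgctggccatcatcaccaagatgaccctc
IRX3, IRX4 and IRX5 were identical over this window, IRX1 and IRX2 each matched IRX4 at 59 of the 60 bases, and IRX6 matched at 58. Outside this region the transcripts were mostly distinct. Of all runs of 31 bases in a gene's transcripts, the share also present in another Iroquois gene was from 1.12% (IRX6) to 3.71% (IRX3), and IRX3 and IRX5 shared the most runs, 104. Reads from such stretches could have been counted for another member. The pseudogene IRX1P1 on chromosome 13 had 0 reads in every library.

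Libraries held from 22443904 to 53224112 reads assigned to genes, recovered from the normalized counts as described under the processing. Wild-type replicate 2 and knockout replicate 1 stood apart from the other libraries of their genotype. Their deviations from the genotype means correlated across genes at 0.45. Values without them are given for Iroquois genes whose call they change and for some other genes, not for every gene. STK25 itself had 45.8% of its wild-type mean in the knockout (limma log2 fold change -1.12, SE 0.19, Benjamini-Hochberg adjusted p = 0.00903). The adjusted p was 0.0609 without WT replicate 1 and 0.0684 with a replicate block. All 8 cardiomyocyte markers were detected in every library. Of these limma called 1, NKX2-5, lower and 0 higher, a share near the 12.8% called over all 15536 genes tested. At an unadjusted limma p under 0.05 there were 3 markers higher and 2 lower, where 4275 of the 15536 genes passed. Also called lower by edgeR was MYH6, and DESeq2 called NKX2-5 and MYH6 lower and ACTN2, MYH7 and MYL7 higher.

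The Iroquois genes were compared between the genotypes to ask which members differed and by how much. In the knockout IRX1 fell 10.8-fold and IRX4 fell 8.49-fold in mean normalized count. IRX2 and IRX5 had lower means without passing the threshold, IRX3 had overlapping values, and IRX6 was near the limit of detection in the wild type. Thus 2 of the 6 members were called lower and 0 higher by limma at an adjusted p under 0.05, where 6.79% of the 15536 genes tested were called lower and 5.97% higher. At an unadjusted p under 0.05 limma had 4 members lower and 1, IRX6, higher, where 4275 of the 15536 genes passed in either direction. After adjustment edgeR and DESeq2 also called 0 members higher. As lower edgeR called the same 2 members as limma, and DESeq2 called 4, IRX2 and IRX5 besides these. Of the 15536 genes edgeR called 1864 and DESeq2 3210 in either direction. All 6 passed the filter, a mean of at least 10 normalized counts. Their median log2 fold change was -1.42, against 0.01 over all genes tested. Since these are bulk samples, fewer cells expressing a gene and less RNA per cell cannot be told apart.

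**Figure D1:**
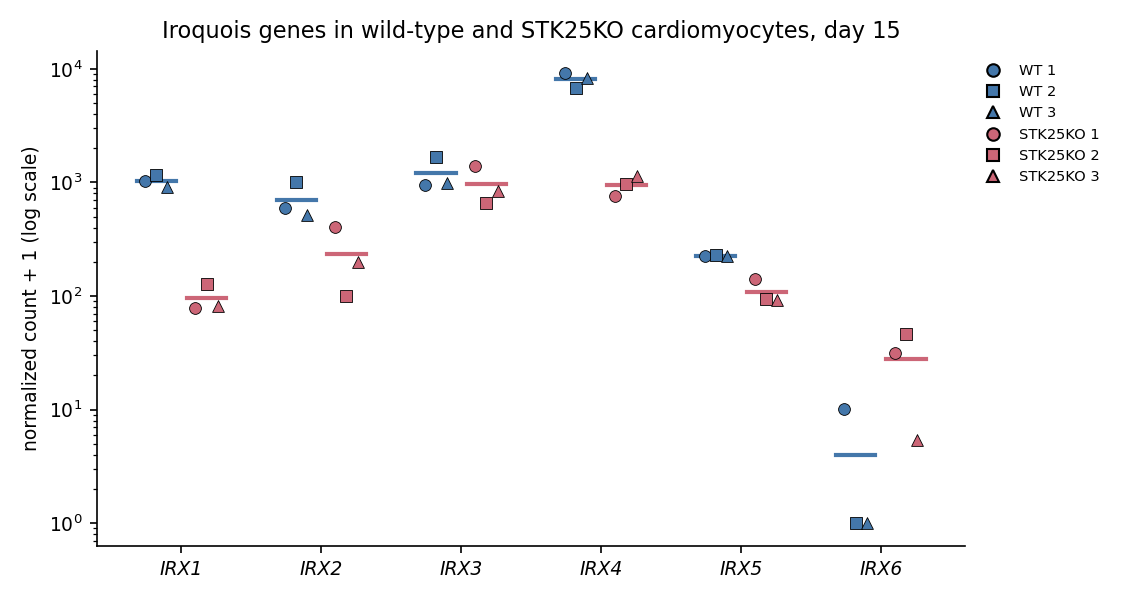
Normalized count plus 1 of the 6 Iroquois genes on a log axis, 1 point per library (blue WT, red STK25KO, shape for the replicate number) and a bar at the mean of the 3 libraries. The genotypes do not overlap for IRX1, IRX2, IRX4 and IRX5.

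IRX4, the ventricular member, spans bases 1877413 to 1887236 of chromosome 5, minus strand (ENSG00000113430.9, GENCODE 29 on GRCh38, the build named in the submitters' processing notes). Its normalized counts were 9134, 6738 and 8279 in the wild-type libraries 1, 2 and 3 and 751, 961 and 1134 in the knockout libraries 1, 2 and 3. Every knockout library lay below every wild-type library, and the lowest wild-type value was still several times the highest knockout value. The means were 8050 ± 1214 and 949 ± 192 (SD, n = 3 each), so the knockout held 11.8% of the wild-type level. In the limma fit this was -3.09 ± 0.22 on the log2 scale (SE), at an adjusted p = 0.000280. At least 591 reads of IRX4 remained in each knockout library, so the gene was reduced and still detected.

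IRX1, at bases 3596054 to 3601403 of chromosome 5, plus strand (ENSG00000170549.3), had the most negative estimate of the family, though its difference from IRX4 was not tested. Wild-type replicates 1, 2 and 3 had 1021, 1155 and 907 normalized counts, and knockout replicates 1, 2 and 3 had 77.5, 127 and 80.0. The groups did not overlap, and the spread was small beside the distance between them. The mean went from 1028 ± 124 to 94.9 ± 27.9 (SD, n = 3 each), or 9.23% of the wild-type level, and the limma estimate was -3.45 ± 0.29 on the log2 scale (SE), adjusted p = 0.000472. Among all genes tested 1.82% had a more negative fold change than IRX1 and 2.34% a more negative one than IRX4. For each of these members an exact two-sided permutation test of 3 against 3 libraries gave p = 0.1, the smallest p this design allows.

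IRX2 lies between IRX4 and IRX1 at bases 2745845 to 2751662, minus strand (ENSG00000170561.12). Its wild-type values were 597, 1005 and 515 normalized counts, and its knockout values 402, 98.1 and 197. The groups did not overlap, but knockout replicate 1 was the nearest to the wild type and 4.10 times the lowest knockout library. The means were 706 ± 263 and 232 ± 155 (SD, n = 3 each). The limma estimate, -1.76 ± 0.52 on the log2 scale (SE), did not pass the threshold (adjusted p = 0.0638). Without STK25KO replicate 1 it was -2.27 (limma adjusted p = 0.0151), and without both libraries that stood apart it was -1.99 (limma adjusted p = 0.00451). Leaving out STK25KO replicate 2 instead gave -1.26 (limma adjusted p = 0.127), so which libraries enter decides this call.

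IRX3, at bases 54283304 to 54286763 of chromosome 16, minus strand (ENSG00000177508.11), had 949, 1679 and 988 normalized counts in the wild type and 1392, 659 and 835 in the knockout. The groups overlapped, with knockout replicate 1 above a pair of wild-type libraries. The means were 1205 ± 411 and 962 ± 383 (SD, n = 3 each), and the log2 fold change of -0.35 equalled its SE of 0.35 (limma adjusted p = 0.580). Without WT replicate 2 it was -0.08, and without STK25KO replicate 1 it was -0.65 (limma adjusted p = 0.209).

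IRX5, at bases 54930862 to 54934485 of chromosome 16, plus strand (ENSG00000176842.14), had 225, 226 and 225 normalized counts in the wild type, the closest replicates of any member. The knockout libraries had 140, 92.5 and 91.5, all below the wild type. The means were 225 ± 0.859 and 108 ± 27.6 (SD, n = 3 each), or 47.9% of the wild-type level. The limma estimate of -1.08 ± 0.30 on the log2 scale (SE) was just over the threshold (adjusted p = 0.0565). It passed without STK25KO replicate 1 (-1.28, limma adjusted p = 0.0284) and without both libraries that stood apart (-1.28, limma adjusted p = 0.0200). Each library held from 83 to 352 reads of IRX5, so counting error alone exceeds the wild-type SD printed above.

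IRX6, at bases 55323760 to 55330760 of chromosome 16, plus strand (ENSG00000159387.7), was barely detected. It had 6, 0 and 0 reads in the wild-type libraries and 24, 41 and 5 in the knockout libraries. In normalized counts these were 9.06, 0 and 0 against 30.5, 45.7 and 4.44, and the groups overlapped. In WT replicates 2 and 3 a count of 0 allows up to 3 reads, or 2.29 and 1.91 normalized counts. The limma estimate was 3.21 ± 1.28 on the log2 scale (SE, adjusted p = 0.149), and it ran from 1.37 to 5.36 with pseudocounts of 10 and 0.1 in place of 1.

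In all, 4 of the 6 members had knockout libraries wholly below the wild type, a separation in that direction that 17.2% of tested genes showed. The 3 members on chromosome 5 had log2 fold changes of -3.45, -1.76 and -3.09, and the 3 on chromosome 16 of -0.35, -1.08 and 3.21.

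**Figure D2:**
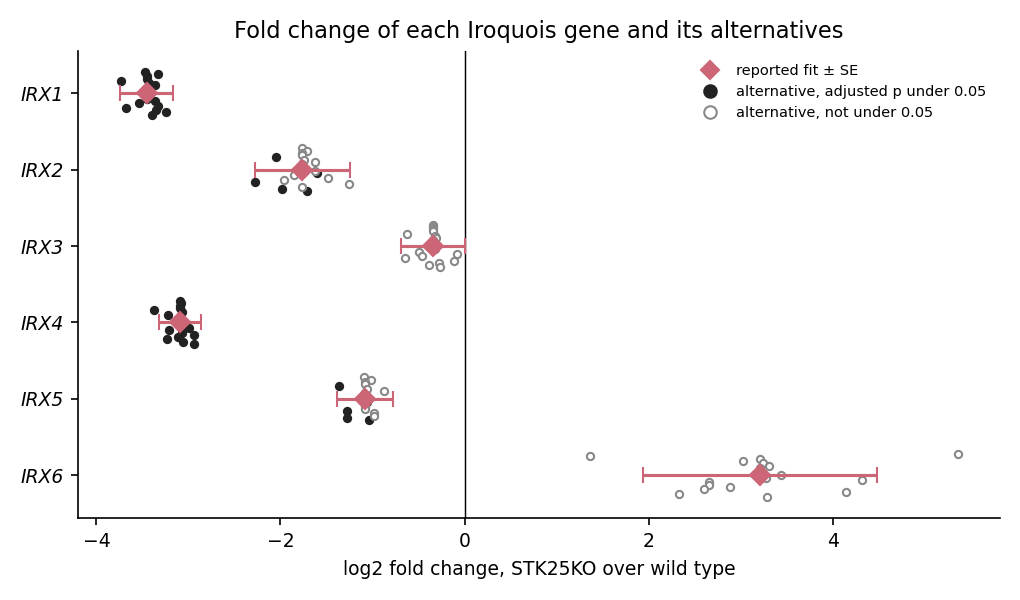
Log2 fold change of each Iroquois gene, knockout over wild type, with the reported limma value and its SE (diamonds) and 1 small point for each alternative, filled where the adjusted p was under 0.05. All alternatives for IRX1 and IRX4 are filled, IRX2 and IRX5 have filled and open points, and IRX3 and IRX6 have open points only.

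Levels of different members were compared per kb of exon (the union of a gene's GENCODE exons), since longer genes collect more reads. In the wild type IRX4 stood first with 2860 ± 431 normalized counts per kb (SD, n = 3), 5.17 times the next member. IRX1 followed with 553 ± 66.7 and IRX3 with 414 ± 141, and the libraries of these neighbours overlapped. IRX2 had 209 ± 77.7, IRX5 79.2 ± 0.302 and IRX6 0.889 ± 1.54 (SD, n = 3 each), each below all libraries of the member before it.

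In the knockout the order changed. IRX4, with 337 ± 68.1 normalized counts per kb, and IRX3, with 330 ± 131 (SD, n = 3 each), had overlapping libraries. IRX2 had 68.7 ± 45.7, IRX1 51.1 ± 15.0 and IRX5 37.9 ± 9.70 (SD, n = 3 each), and neighbours among these 3 overlapped too. IRX6 was last with 7.91 ± 6.14. Leaving out STK25KO replicate 2 or 3 put IRX3 before IRX4, and leaving out replicate 1 put IRX1 before IRX2.

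The family's summed level was 4.94-fold lower in the knockout. It was 4378, 3969 and 4000 normalized counts per kb in the wild-type libraries and 964, 711 and 825 in the knockout libraries. IRX4 made up 74.1%, 60.3% and 73.5% of that sum in the wild type and 27.7%, 48.0% and 48.8% in the knockout. IRX3 made up 7.44%, 14.5% and 8.49% in the wild type and 49.6%, 31.8% and 34.8% in the knockout. The wild-type family was thus mostly IRX4, and the knockout family was mainly IRX4 and IRX3 together.

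**Figure D3:**
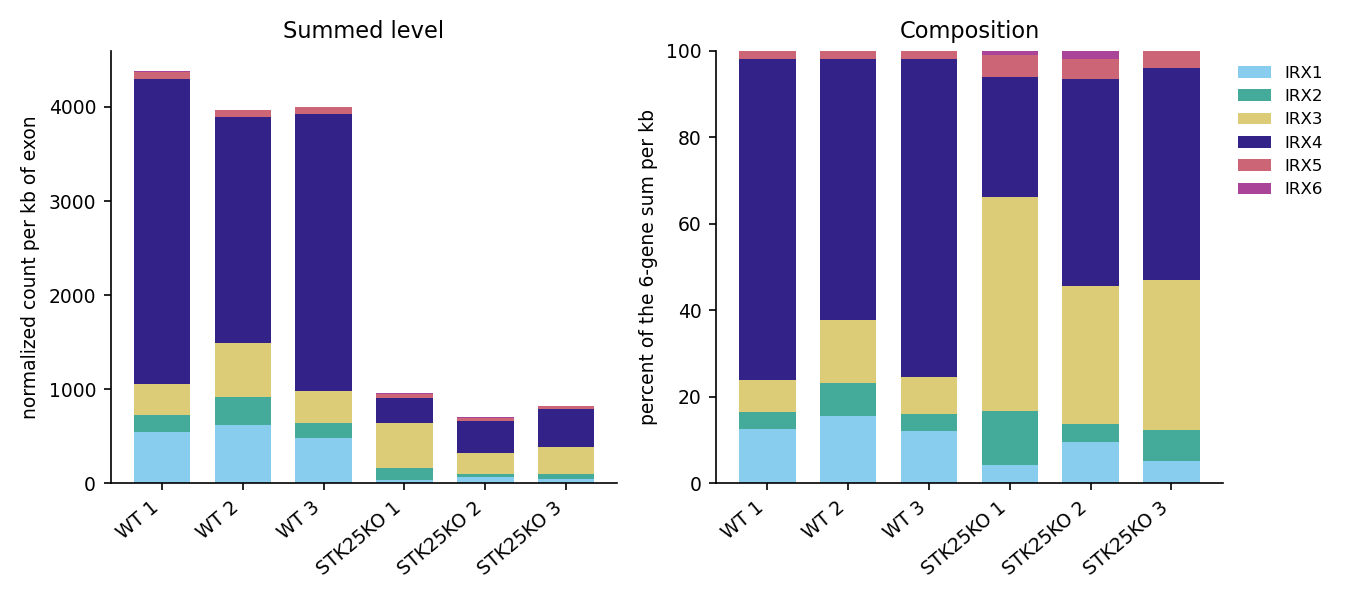
Left, stacked normalized count per kb of exon of the 6 Iroquois genes in each library. Right, the same values as percent of the 6-gene sum. The sum falls from about 4000 to under 1000, and the IRX3 band widens from at most 14.5% to at least 31.8%.

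Whether members differed in how much they changed was tested on per-library log2 ratios, over 4 pairs. The log2 ratio of IRX4 to IRX3 was 3.27, 2.00 and 3.07 in the wild type and -0.89, 0.54 and 0.44 in the knockout. It thus differed by -2.75 between genotypes with no overlap (exact two-sided permutation p = 0.1, the smallest possible, Benjamini-Hochberg adjusted 0.2). The log2 ratio of IRX4 to IRX5 differed by -2.01, also with no overlap (exact permutation p = 0.1, adjusted 0.2). For IRX1 to IRX2 the difference was -1.69 and the libraries overlapped (exact permutation p = 0.2, adjusted 0.2). For IRX3 to IRX5 it was 0.74, also with overlap (exact permutation p = 0.2, adjusted 0.2). No pair passed a threshold of 0.05, which 3 against 3 libraries cannot reach.

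Within a genotype IRX2 and IRX3 deviated alike, and IRX4 did not follow them. IRX2 lay 0.57 (log2) above its genotype mean in WT replicate 2 and 1.01 above it in STK25KO replicate 1. IRX3 lay 0.53 and 0.60 above its mean in the same libraries, whereas IRX4 lay below its mean there, at -0.25 and -0.32. IRX1 was at 0.18 and -0.25, and IRX5 at 0.01 and 0.40. So IRX2, IRX3 and IRX5 were highest, and IRX4 lowest, in the library of each genotype that stood apart, with IRX5 almost level among the wild-type libraries.

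Base composition moved with the same libraries. The tenth of tested genes with the highest GC content, at least 61.6%, had a median deviation of 0.15 in WT replicate 2 and 0.16 in STK25KO replicate 1, and from -0.13 to -0.03 in the other libraries. The longest transcripts of the Iroquois genes have GC contents of 65.9% (IRX1), 58.9% (IRX2), 63.9% (IRX3), 69.2% (IRX4), 58.9% (IRX5) and 63.4% (IRX6). IRX4, with the highest GC content of the 6, deviated the other way from these genes. With each library's trend over GC content and transcript length removed, an alternative chosen after the data were seen, IRX1 stood at -3.40 and IRX4 at -2.94, and IRX2 and IRX5 passed the threshold at -1.71 and -1.04 (limma adjusted p = 0.0485 and 0.0444).

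**Figure D4:**
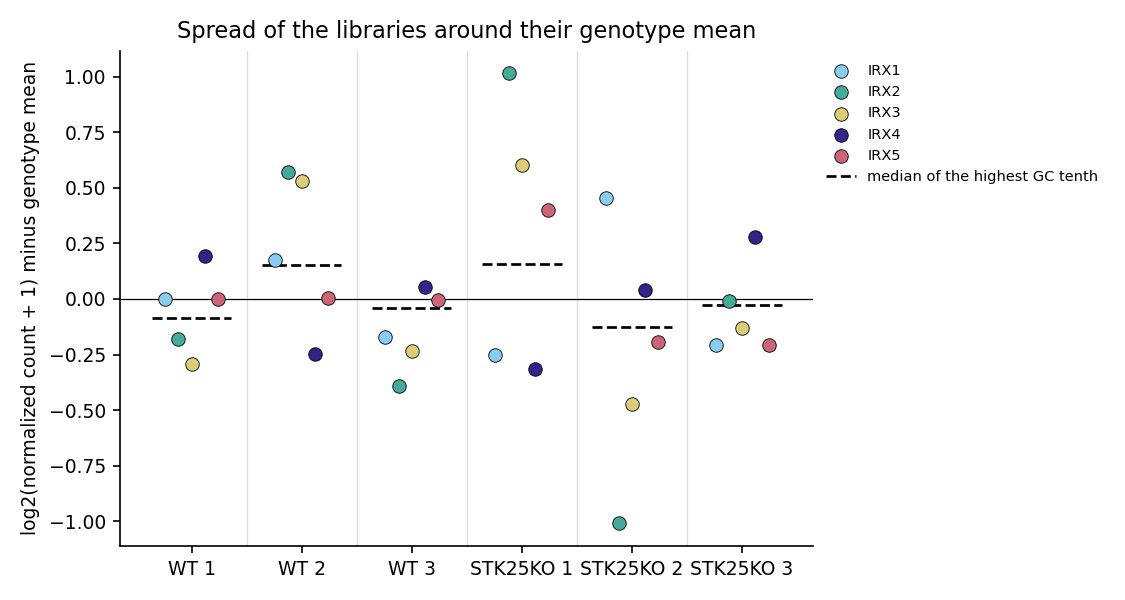
Deviation of each library from the mean of its genotype on the log2(normalized count + 1) scale for IRX1 to IRX5 (points), with the median deviation of the tenth of genes highest in GC content (dashed bars). IRX2 and IRX3 are high and IRX4 low in WT replicate 2 and STK25KO replicate 1.

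The genes around each cluster were examined, because Iroquois genes share long regulatory landscapes with their neighbours. C5orf38, called IRX2-DT in RefSeq, starts 469 bases from IRX2 on the opposite strand (chromosome 5, 2752131 to 2755397, ENSG00000186493.12). It had 237, 570 and 214 normalized counts in the wild type and 54.7, 23.4 and 24.9 in the knockout, with no overlap. It fell by 3.23 ± 0.52 on the log2 scale (SE, limma adjusted p = 0.00727). Like IRX2, it was highest in WT replicate 2 and STK25KO replicate 1, and without both it fell by 3.17 (limma adjusted p = 0.000939). The GENCODE bodies of IRX2 and C5orf38 do not overlap, so a read within either body has only 1 of them to be assigned to by position. The labels do not say that counting used strand, and the annotation used for counting is not given. Whether the genes shared any reads was not tested.

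Of 24 other tested genes within 2 Mb of the chromosome 5 cluster 4 were called (16.7%), 2 higher and 2 lower, against 12.8% of all genes tested. Their median log2 fold change was 0.06. The called genes besides C5orf38 were AC026412.1, SLC12A7 and LRRC14B. AC026412.1, a transcribed pseudogene 243.4 kb from IRX4 (chromosome 5, 1598920 to 1634005), had 1095, 1357 and 1080 normalized counts in the wild type and 5.08, 7.80 and 3.55 in the knockout (log2 fold change -7.55, SE 0.38, limma adjusted p = 8.74e-05). Its reads may be shared with its parent gene or related copies. SLC12A7, a potassium-chloride cotransporter, rose by 1.61 and LRRC14B by 1.71 (limma adjusted p = 0.0116 and 0.0159). MRPL36 and NDUFS6, the tested genes next to IRX4 on the side away from IRX2, differed by -0.36 and 0.11 on the log2 scale (limma adjusted p = 0.668 and 0.917).

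Of 24 other tested genes within 2 Mb of the chromosome 16 cluster 5 were called (20.8%), 2 higher and 3 lower, and the median log2 fold change was -0.37. FTO, whose introns are known to hold enhancers that contact IRX3 and IRX5, had 2809, 1235 and 3070 normalized counts in the wild type and 969, 2571 and 2244 in the knockout. These values overlapped (limma adjusted p = 0.731, log2 fold change -0.31, SE 0.47), with 0.13 in place of -0.31 without STK25KO replicate 1. FTO was lowest in the library of each genotype where IRX3 was highest. On the other side of the cluster CES1, a carboxylesterase 472.1 kb from IRX6, had 875, 708 and 971 normalized counts against 16.5, 8.92 and 7.11 (limma adjusted p = 0.000198, log2 fold change -6.24, SE 0.40). Related copies of CES1 could share its reads, though the neighbouring CES1P1 and CES1P2 had 0 reads in every library. SLC6A2, the noradrenaline transporter, fell by 2.83 and the metallothionein gene MT1E fell by 2.39 on the log2 scale (limma adjusted p = 0.0130 and 0.0350). GNAO1, a G protein alpha subunit, rose by 1.84 and HERPUD1, an endoplasmic reticulum stress gene, rose by 0.97 (limma adjusted p = 0.0292 and 0.0131).

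**Figure D5:**
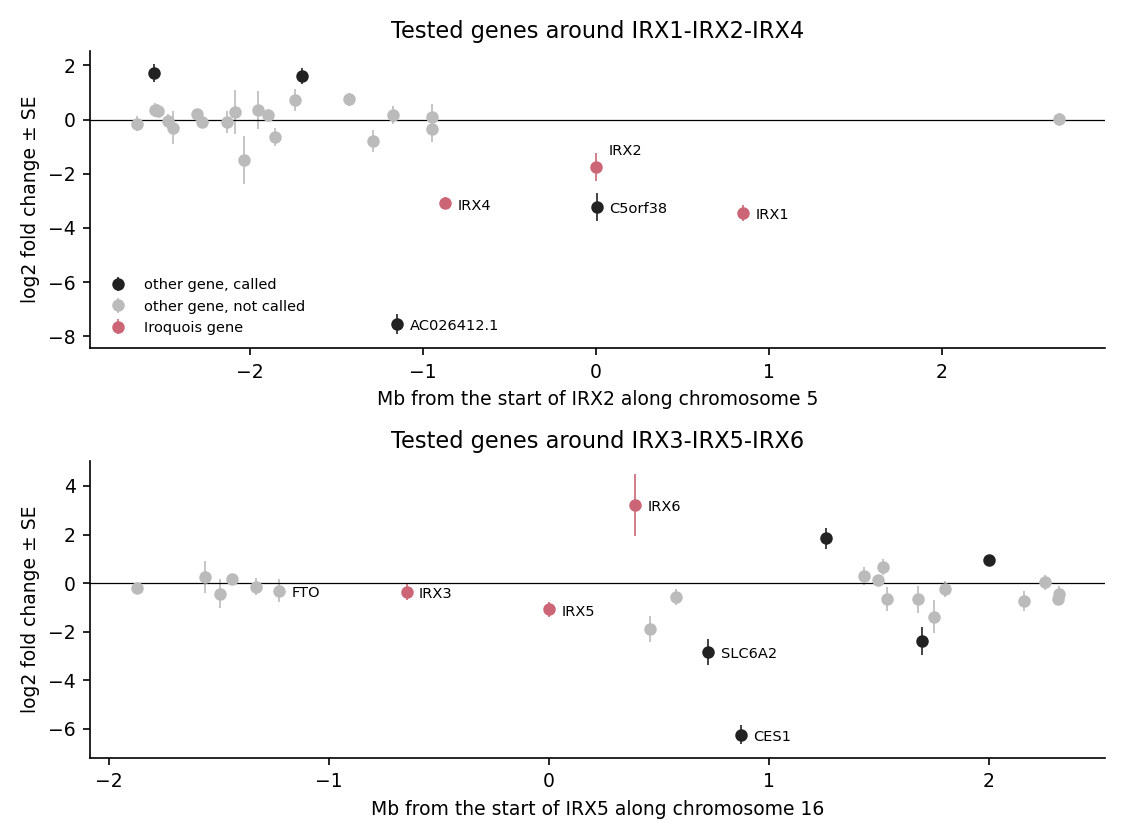
Log2 fold change with its SE of tested genes within 2 Mb of the Iroquois clusters, against distance in Mb from the start of IRX2 (top) or IRX5 (bottom) along the chromosome. IRX4, C5orf38 and IRX1 lie from -3.09 to -3.45, and the median over the other genes of that panel is 0.06.

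Promoter sequence was examined for the chromosome 5 members, which held both called genes. RefSeq windows (GRCh38.p14) matched 3 of the 6 genes, IRX1, IRX2 and IRX4, the last with 3 start sites. The 250 bases before the IRX4 start that held a motif match (chr5:1882926-1883175, minus strand), the start of IRX1 (chr5:3595582-3595831, plus strand) and that of IRX2 (chr5:2751678-2751927, minus strand) are shown 5′ to 3′, with capitals marking a motif match. The IRX2 window overlaps that of IRX2-DT almost entirely.
IRX4: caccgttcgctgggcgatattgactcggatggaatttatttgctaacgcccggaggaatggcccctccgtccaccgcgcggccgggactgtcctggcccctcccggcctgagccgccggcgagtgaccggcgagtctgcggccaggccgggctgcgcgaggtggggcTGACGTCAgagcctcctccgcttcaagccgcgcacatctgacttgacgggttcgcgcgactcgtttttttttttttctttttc
IRX1: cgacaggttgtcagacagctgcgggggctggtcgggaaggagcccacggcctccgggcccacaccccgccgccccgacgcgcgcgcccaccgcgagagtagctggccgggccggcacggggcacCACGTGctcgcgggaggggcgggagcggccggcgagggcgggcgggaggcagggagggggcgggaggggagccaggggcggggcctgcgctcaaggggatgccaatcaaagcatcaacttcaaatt
IRX2: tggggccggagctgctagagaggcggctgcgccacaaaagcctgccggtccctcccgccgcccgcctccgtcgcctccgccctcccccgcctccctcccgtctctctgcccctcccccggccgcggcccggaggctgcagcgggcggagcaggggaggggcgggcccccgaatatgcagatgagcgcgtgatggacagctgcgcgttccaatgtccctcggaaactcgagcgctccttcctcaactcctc
These 3 windows had GC contents of 64.0%, 75.2% and 72.8%, against a median of 58.0% over 35116 windows of the same length. The windows of the other IRX4 starts, not printed, had 79.2% and 77.6%. The printed IRX4 window lies inside the GENCODE gene body (1877413 to 1887236) and was picked for its motif match. On both strands 6 motifs were searched, the cyclic AMP response element palindrome TGACGTCA, the E-box CACGTG, the GATA motif AGATAA, the NKX2-5 motif TNAAGTG, the T-box motif AGGTGT and the Iroquois motif ACANNTGT. TGACGTCA was found once, 83 to 76 bases before the IRX4 start whose window is printed, and occurred in 1.65% of all windows. CACGTG was found once, 126 to 121 bases before the IRX1 start, and occurred in 6.34% of windows. The other 4 motifs, found in 9.17%, 8.73%, 9.57% and 4.71% of all windows in that order, were not in the windows of these 3 genes, the other IRX4 starts included.

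Genes that Iroquois factors act on or with were described next, from lists chosen with earlier results of these data known. Ventricular genes were the first, since IRX4 marks that chamber. Of 12 ventricular genes limma called 6 lower and 0 higher, with a list median of -0.35, where it called 6.79% of all genes tested lower and 5.97% higher. At an unadjusted p under 0.05 limma had 3 of the ventricular genes higher, edgeR called 0 higher and DESeq2 called 2. The lower genes included MYL2, the ventricular regulatory light chain, with 14793 ± 901 normalized counts in the wild type (SD, n = 3) and 176 ± 142 in the knockout (SD, n = 3). HEY2, a repressor of atrial genes in the ventricle, went from 3227 ± 333 to 140 ± 47.1, and PRDM16, a compact myocardium factor, from 374 ± 33.4 to 15.0 ± 4.18. On the log2 scale these 3 differed by -6.68, -4.57 and -4.59 (limma adjusted p = 0.000281, 0.000177 and 0.000445). FHL2, a sarcomere-associated LIM protein gene, and GJA1 were also called lower. PLN (-0.76, limma adjusted p = 0.0459) was the weakest call, over the threshold in each fit that left out WT replicate 1, 2 or 3 or STK25KO replicate 2 or 3, with adjusted p up to 0.176, and also with no filter (0.119), equal upper quartiles (0.111), eBayes without a trend (0.0589), robust eBayes (0.0593) and a replicate block (0.272). Other ventricular genes were not called. MYH7, the slow myosin heavy chain, had a log2 fold change of 1.42 (limma adjusted p = 0.0639), and MYL3 and HAND1 had 0.54 and 0.14 (limma adjusted p = 0.306 and 0.651).

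Atrial and nodal genes moved in both directions. Of 17 listed 16 were tested, 3 called higher and 4 lower, with a list median of 0.49. Over all genes tested limma called 5.97% higher and 6.79% lower. ISL1, a progenitor and pacemaker factor, rose from 567 ± 187 to 7817 ± 1001 in mean normalized count (SD, n = 3 each). NR2F2, an atrial identity factor, rose from 36.2 ± 28.6 to 407 ± 214. On the log2 scale ISL1 and NR2F2 differed by 3.82 and 3.59 (limma adjusted p = 0.000225 and 0.00818). The lower ones included NPPA, the atrial natriuretic peptide, VSNL1 and the atrial potassium channel KCNA5, at -2.38, -2.27 and -1.93 on the log2 scale (limma adjusted p = 0.00463, 0.0123 and 0.00307). VSNL1 was over the threshold without WT replicate 1 (limma adjusted p = 0.0651).

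Conduction and repolarisation genes were listed because IRX3 is known to promote GJA5 and repress GJA1 in the His-Purkinje system and IRX5 to repress KCND2. Of 15 listed 12 were tested, 1 called higher and 4 lower, with a list median of 0.05, where 5.97% of all genes tested were called higher and 6.79% lower. GJA5, the connexin of fast-conducting fibres, had 1072, 820 and 1171 normalized counts in the wild type and 0, 0 and 3.55 in the knockout, where STK25KO replicate 3 held 4 reads. GJA1, the main ventricular connexin, had 690, 981 and 498 against 16.5, 33.4 and 26.7. So both connexins fell (log2 fold change -9.25 and -4.77, limma adjusted p = 0.000270 and 0.000495), while IRX3 was not called. The GJA5 estimate rests on 4 knockout reads in all and ran from -11.57 to -6.53 with pseudocounts of 0.1 and 10. KCND2 had at most 3 reads in every library of either genotype and was not tested. KCNIP2, the auxiliary subunit of the transient outward current, had a wild-type mean of 2527 ± 184 and a knockout mean of 13325 ± 2513 (SD, n = 3 each), a rise of 2.38 on the log2 scale (limma adjusted p = 0.000555). KCND3, which encodes a pore subunit of that current as KCND2 does, differed by 3.58 without passing (limma adjusted p = 0.0564). It passed in 6 of 20 alternatives, among them DESeq2 (adjusted p = 0.00177) and without both libraries that stood apart (3.48, limma adjusted p = 0.0298). When 1 library was left out it ran from 2.53 (without WT replicate 3) to 4.15 (without WT replicate 2). The repolarising channel KCNH2 fell by 1.32 on the log2 scale (limma adjusted p = 0.00425).

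Known partners and upstream factors of Iroquois genes made up another list. Of 15 listed 14 were tested, 1 called higher and 1 lower, a share near the 12.8% called over all genes tested, with a list median of 0.01. NKX2-5, the cardiac homeobox factor on which IRX4 expression depends in the mouse heart, had 20429, 23430 and 19414 normalized counts in the wild type and 6718, 5869 and 6745 in the knockout (log2 fold change -1.71, SE 0.18, limma adjusted p = 0.00135). MEF2C, a muscle transcription factor, rose by 1.14 (limma adjusted p = 0.0138). Its limma adjusted p was 0.0519 without WT replicate 3 and 0.0600 without STK25KO replicate 3. With equal totals it was 0.0939 and with a replicate block 0.0913. HAND2, also required for IRX4 in the mouse, had 2056, 5031 and 1752 normalized counts against 3475, 992 and 1690 (log2 fold change -0.55, limma adjusted p = 0.570). Like IRX2 and IRX3, HAND2 was highest in WT replicate 2 and STK25KO replicate 1. Without both its log2 fold change was -0.55 (limma adjusted p = 0.125), without WT replicate 2 alone -0.08 and without STK25KO replicate 1 alone -1.02 (limma adjusted p = 0.938 and 0.204), and it was -0.12 without STK25KO replicate 2 (limma adjusted p = 0.915). SMYD1, through which IRX5 represses its targets, had a log2 fold change of -0.12 (limma adjusted p = 0.863), and the nuclear receptor RXRA, a partner of IRX4, had -0.34 (limma adjusted p = 0.503). VDR, the other receptor in that complex, had 3.17 ± 2.54 and 3.70 ± 1.25 normalized counts (SD, n = 3 each), below the filter.

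Other TALE homeobox genes, the wider class to which Iroquois genes belong, were listed beside them. Of 12 tested limma called 1 lower and 0 higher, a share under the 12.8% called over all genes tested, with a list median of -0.12. At an unadjusted limma p under 0.05, or by edgeR or DESeq2, the counts for this list were the same. PBX3, a cofactor of homeodomain proteins, had a wild-type mean of 3011 ± 219 and a knockout mean of 1635 ± 78.9 (SD, n = 3 each), a difference of -0.88 on the log2 scale (limma adjusted p = 0.0158). It was over the threshold without WT replicate 1 or 3 or STK25KO replicate 2 or 3, with adjusted p up to 0.0924. MEIS1 and MEIS2, known cofactors in the heart, had -0.40 and -0.36 (limma adjusted p = 0.409 and 0.303). MKX, a TALE gene related to the family, had 20.1 ± 13.6 and 26.2 ± 7.77 normalized counts (SD, n = 3 each).

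The genes whose profiles over the 6 libraries were most like each member were found among 13035 other genes with a mean of at least 50 normalized counts. Likeness was the root-mean-square difference between log2 profiles, each centred on its own mean. IRX4 was nearest to FGF12, an intracellular regulator of sodium channels, at 0.21, TSPAN7 at 0.23 and NAV1 at 0.24. IRX1 was nearest to INPP5D at 0.16, SP6 at 0.25 and PPP2R2B at 0.29. IRX2 was nearest to RBKS at 0.17, RAB26 at 0.23 and RPL22L1 at 0.24. For IRX3 the nearest were PAXX at 0.04, PYM1 at 0.06 and NTF4 at 0.07, and for IRX5 RASSF8 at 0.08, PCOLCE at 0.10 and TUBA4A at 0.10. No Iroquois gene was among the 3 nearest to another. IRX6, with few reads, had no near profile, its closest being DUSP4 at 0.91, among 13036 genes. For IRX4 most of the remaining difference was within genotypes (0.18 for FGF12). These libraries share depth and base composition effects, so likeness is a description only.

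Markers of other cell types moved with the genotype too. For comparison, limma called 5.97% of the 15536 genes tested higher and 6.79% lower, and 4275 passed at an unadjusted p under 0.05. Summed over 5 smooth muscle genes, the level ranged between 80450 and 89660 normalized counts among wild-type libraries and between 489337 and 540814 among knockout libraries, with 4 of 5 called higher. Of 6 tested epicardial and mesothelial genes 2 were called higher, TCF21 and ALDH1A2, and the sum over the 7 listed was from 249 to 332 against 1111 to 1298, with MSLN at or under 3 reads in every library. Of 4 tested neural genes 3 were called higher. Of the 5 below the filter, SOX1 and NEUROG2 were at or under 3 reads throughout. DCX had 5, 4 and 3 reads in the wild type against 0, 0 and 1 in the knockout. STMN2 had 8, 2 and 6 against 0, 2 and 4, and ELAVL3 had 0, 5 and 6 against 24, 3 and 4. Fibroblast sums overlapped, from 8713 to 17297 and from 8073 to 16279. Of 7 fibroblast genes limma called 3 higher and 0 lower, and TCF21, also in the epicardial list, was among them. At an unadjusted limma p under 0.05 there were 5 higher and 2 lower, COL1A1 and POSTN, and DESeq2 called COL1A1 lower. Of 4 tested endothelial genes limma called 0, with 1 at an unadjusted p under 0.05, and edgeR and DESeq2 called 0. Of 5 tested pluripotency genes limma and edgeR called 0 and DESeq2 2, with 3 at an unadjusted limma p under 0.05. Of 6 epithelial genes 2 were called higher and 2 lower, and the embryonic myosin gene MYH3, the 1 skeletal muscle gene tested, was called higher. MYOD1, MYF5 and PAX7 of skeletal muscle were at 0 in every library. Of 7 endoderm genes FOXA2 and CDX2 were at 0 in every library and 3 were tested. APOB was called higher, with 3, 0 and 1 reads in the wild type and 323, 395 and 278 in the knockout, and AFP was called lower, with 81, 59 and 227 reads against 2, 0 and 4 (limma adjusted p = 0.000938 and 0.00661). TTR was not called (log2 fold change -2.39, limma adjusted p = 0.0996), but its libraries did not overlap and DESeq2 called it lower. The sum over the endoderm list ranged between 130 and 178 normalized counts in the wild type and between 256 and 468 in the knockout. APOB alone had 411, 440 and 247 in the knockout libraries, so it made up most of that sum. Bulk samples do not show which cells the marker reads came from, and any part of other cells in the Iroquois values was not tested.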

How the data were processed

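Per the labels' protocols, RNA was isolated by column with DNase digestion, and libraries were made with the Clontech Ultra Low v4 and NexteraXT kits. The submitters' processing notes name bcl2fastq 2.19, kallisto 0.44.0, DESeq2 1.28.1 and GRCh38. The annotation is not given in the sources used here. The deposited values are a signal that the authors' table calls normalized counts, 1 column per library. In every library 100% of values were whole multiples of a common step (tolerance 0.001 of a read), so reads were recovered. No molecular identifiers are mentioned, so floors of 3 reads cover counting error only.

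limma 3.58.1 (R 4.3.3) was fitted to log2(value + 1), which understates fold changes of low genes, keeping the 15536 genes whose mean reached 10, with an eBayes trend, no covariate and Benjamini-Hochberg adjustment over all of them (threshold 0.05). edgeR 4.0.16 on the recovered reads called 1864 genes, limma 1982. The fits were tested on simulated data. Positions and lengths came from GENCODE 29, promoter windows from RefSeq. Members, lists and tests were chosen with earlier results of these data known. Genes named are the 6 members, those with a known link to them (GJA5, GJA1, KCND2, MYL2, HEY2, NKX2-5, HAND2, VDR, RXRA, SMYD1, C5orf38, FTO, and CRNDE, not analysed here), called list members whose higher genotype mean reached 50 (at most the 4 largest in each direction), and the 3 nearest profiles. Others were named after their values were seen. Some called list members are not reported here. Alternatives were other pseudocounts, filters, scalings, eBayes settings, a replicate block, edgeR, DESeq2 1.42.0 and leaving out libraries. Figures used Python 3.11.15 and matplotlib 3.10.9.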

Additional observations from a re-analysis of the deposited data

How the results depend on the processing

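IRX1 and IRX4 kept their direction and stayed under the threshold in all 20 alternatives, with log2 fold changes from -3.73 to -3.24 and from -3.37 to -2.93. IRX3 kept its direction and passed in none of the 20, and so did IRX6 in the 19 that tested it (a mean filter of 50 leaves it out). IRX2 passed with equal totals (-2.05), DESeq2 (-1.60), without both libraries that stood apart (-1.99) and with the GC and length trend removed (-1.71), and leaving out 1 library ran from -2.27 to -1.26. IRX5 passed with equal totals (-1.36), DESeq2 (-1.06), eBayes without a trend (-1.08), without those libraries (-1.28) and with the GC trend removed (-1.04), and leaving out 1 library ran from -1.28 to -0.98. In those settings except eBayes without a trend, 4 members were called, and leaving out 1 library gave from 2 to 4 (4 without STK25KO replicate 1). The cause of these shifts was not tested. Leaving out both libraries and removing the GC and length trend were alternatives chosen after seeing the data. Equal totals moved the median of all genes from 0.01 to -0.27 and the share of calls that were higher from 46.8% to 27.4%.

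Over all genes the 1982 calls became 3210 with DESeq2, 4483 without both libraries and from 796 (without WT replicate 1) to 2181 when 1 library was left out, with 916 without WT replicate 3, 1292 without STK25KO replicate 2 and 962 without STK25KO replicate 3. With the replicate number as a block there were 798 calls, and the same 2 Iroquois genes passed, IRX1 with adjusted p = 0.00447 and IRX4 with 0.00440. The deviations of libraries with the same number correlated at -0.23, -0.40 and 0.17. With 3 libraries per genotype, and 0.45 between WT replicate 2 and STK25KO replicate 1, these values cannot settle whether the numbers pair the samples. Without both libraries calls rose from 6 to 10 in the ventricular list, 7 to 12 in the atrial list, 5 to 8 in the conduction list and 1 to 3 among other TALE genes, and DESeq2 called 13 atrial genes. The partner list gave 1 call in place of 2 with equal totals, with the block and without WT or STK25KO replicate 3. The other TALE list gave 0 limma calls with the block and without WT replicate 1 or 3 or STK25KO replicate 2 or 3, each with 1 gene, PBX3, at an unadjusted p under 0.05. IRX6 had at most 41 reads in a library, so its values carry large counting error.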
